A study of Mus musculus with 2 samples.

Results

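Toll-like receptors sense microbial molecules, and the fragments of their mRNAs were followed here in CD11c+Ia low and CD11c+Ia high cells sorted from mouse spleen. The genes are the 7 receptors Tlr2, Tlr3, Tlr4, Tlr7, Tlr8, Tlr9 and Tlr13, the chaperone gene Unc93b1 and the adaptor gene Myd88. These 9 genes were chosen by symbol, with no threshold on a measured value, but with earlier results of these data known. A tag is a distinct sequence in the library with its number of reads, and a tag of 20 to 30 nt was given to a gene when it was identical, in sense, to transcripts of that protein-coding gene and of no other. By this rule the 9 genes held 402 of 142394 mRNA tags in Ia_low and 660 of 343784 in Ia_high, and 11911 protein-coding genes held at least 1 tag in either library.

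Both populations came from C57BL/6J spleen cells enriched with CD11c beads, stained for Ia (the MHC class II molecule of the mouse) and separated on a MoFlo XDP sorter, with a stated purity above 95%. No treatment or genotype beyond the strain is named, and the labels call both populations dendritic cells. Each population was sequenced as 1 small RNA library, so there was no replicate check and no test between them was possible. The values below therefore compare these libraries, and the exact 95% intervals cover counting error only. They rest on distinct tags and not on reads, because PCR copies without molecular identifiers are not independent molecules. The intervals treat tags as independent counts, although several tags of a gene can begin at the same base.

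As background, Toll-like receptors are membrane proteins whose leucine-rich repeats bind microbial products and whose intracellular TIR domain recruits adaptors. Tlr2 and Tlr4 work at the cell surface on lipoproteins and lipopolysaccharide, while Tlr3, Tlr7, Tlr8, Tlr9 and Tlr13 work in endosomes on nucleic acids. Unc93b1 carries the endosomal receptors out of the endoplasmic reticulum, and Myd88 passes the signal of nearly all of them to Irak kinases and NF-kB, with Tlr3 as the exception. In the spleen of the mouse, Tlr3 is known from the cross-presenting cDC1 subset, and Tlr7 from plasmacytoid dendritic cells, B cells and monocytes.

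The fragments that carried most reads are shown because the counts of each gene rest on such short pieces. For coding fragments the line gives up to 20 bases of transcript on either side in lower case and the tag in capitals, 5′ to 3′. Tags from untranslated regions are given alone. All sequences agree base for base with the GENCODE M21 transcripts of GRCm38.
Tlr2: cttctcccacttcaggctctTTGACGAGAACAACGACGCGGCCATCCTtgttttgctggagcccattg
Tlr4: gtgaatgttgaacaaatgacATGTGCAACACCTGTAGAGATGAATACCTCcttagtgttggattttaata
Tlr3: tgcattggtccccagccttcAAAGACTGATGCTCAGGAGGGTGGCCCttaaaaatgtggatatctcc
Tlr7: AGAAGGGGAGACTGATAGAAGATAATT
Tlr8: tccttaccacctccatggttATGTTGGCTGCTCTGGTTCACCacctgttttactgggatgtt
Tlr9: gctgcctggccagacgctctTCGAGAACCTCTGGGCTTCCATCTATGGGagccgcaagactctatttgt
Tlr13: ATTAAGGAGAGGACTTAGAACAACAGTC
Unc93b1: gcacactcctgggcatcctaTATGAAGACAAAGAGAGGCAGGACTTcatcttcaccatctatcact
Myd88: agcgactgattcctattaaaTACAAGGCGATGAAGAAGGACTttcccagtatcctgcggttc

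Each of these was the most-read tag of its gene in Ia_low, except for Tlr3, which had none there and is shown by its most-read tag in Ia_high. The Tlr2 tag lies in exon 3 on the minus strand (chr3:83836574-83836601) and had 57 reads in Ia_low and 0 in Ia_high. The Tlr4 tag lies in exon 3 on the plus strand (chr4:66840786-66840815) with 16 and 0 reads in Ia_low and Ia_high. The Tlr3 tag, in exon 6 on the minus strand (chr8:45398382-45398408), had 0 reads in Ia_low and 16 in Ia_high. Each of these pieces was thus read in a single library, and other tags of the same genes carry the comparison.

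The Tlr7 tag lies in the 3′ untranslated region in exon 5 on the minus strand (chrX:167305165-167305191), with 34 reads in Ia_low and 7 in Ia_high. The Tlr8 tag lies in coding exon 3 on the minus strand (chrX:167243332-167243353), with 23 and 0 reads in Ia_low and Ia_high. The Tlr13 tag, in the 3′ untranslated part of exon 3 on the plus strand (chrX:106159847-106159874), had 46 reads in Ia_low and 21 in Ia_high. The Tlr9 tag, in coding exon 2 on the plus strand (chr9:106226270-106226298), led in both libraries with 28 reads in Ia_low and 20 in Ia_high.

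The Unc93b1 tag lies in coding exon 10 on the plus strand (chr19:3947024-3947049) and had 132 reads in Ia_low and 101 in Ia_high. The Myd88 tag lies in coding exon 5 on the minus strand (chr9:119337457-119337478) and had 45 reads in Ia_low and 0 in Ia_high. Of the tags shown, the one with the highest share of its gene's reads was that of Tlr4, with 22.2% in Ia_low.

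Tlr7, Tlr8 and Tlr13 gave more fragments in Ia_low, and Tlr3 gave fragments in Ia_high only. A gene was called higher or lower when its share of mRNA tags differed at least 2-fold and the exact interval of the ratio excluded 1, among genes with 10 tags or more in both libraries together. All 9 genes passed that minimum. Of them 3 were called higher in Ia_low, where 6.21% of all 7132 genes tested were called higher, and 1 was called lower, where 8.51% of all genes were. By the 2-fold limit alone, which Tlr4 also passed, 4 of the 9 genes were higher and 1 was lower, against 9.53% and 17.6% of all genes. The median log2 ratio of the 9 was 0.90, against -0.14 over all genes tested, whose quartiles were -0.73 and 0.42. Because the 9 genes were chosen with earlier results known, these shares and medians describe them and are no test.

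**Figure D1:**
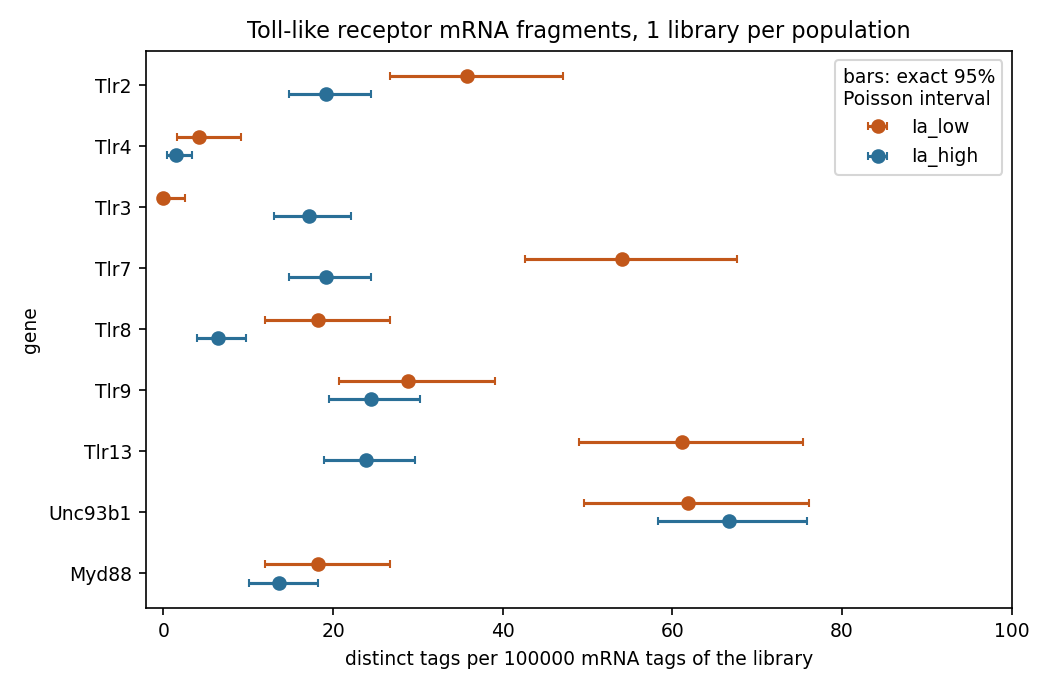
Distinct tags per 100000 mRNA tags (x axis) for each gene (y axis) in Ia_low (orange, upper) and Ia_high (blue, lower), with exact 95% Poisson intervals from 1 library each. The intervals of Tlr7, Tlr8, Tlr13, Tlr2 and Tlr3 stand apart between the libraries, while those of Tlr4, Tlr9, Unc93b1 and Myd88 overlap.

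The endosomal receptors divided into those with more fragments in Ia_low, one with none there, and one with a similar scaled level. Tlr13, which binds a conserved stretch of bacterial ribosomal RNA, had 87 tags (1040 reads) in Ia_low and 82 tags (465 reads) in Ia_high. Per 100000 mRNA tags this was 61.1 in Ia_low and 23.9 in Ia_high, a ratio of 2.56 (1.87 to 3.51) by tags and 2.82 by reads. Tlr7, a sensor of single-stranded RNA and guanosine, had 77 tags (806 reads) in Ia_low and 66 tags (329 reads) in Ia_high. Its level was 54.1 in Ia_low and 19.2 in Ia_high per 100000, a ratio of 2.82 (2.001 to 3.97) by tags and 3.08 by reads. Tlr7 and Tlr13 were thus close in size in both libraries and in their ratio.

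Tlr8, the neighbour and closest relative of Tlr7, had 26 tags (301 reads) in Ia_low and 22 tags (102 reads) in Ia_high. That was 18.3 in Ia_low and 6.40 in Ia_high per 100000 mRNA tags, a ratio of 2.85 (1.55 to 5.28) by tags and 3.72 by reads. Tlr7 and Tlr8 lie next to each other on the minus strand of the X chromosome, 40600 bases apart (chrX:167304929-167330558 and chrX:167242696-167264329), and Tlr13 lies on the same chromosome (chrX:106143204-106160493). Of 204 X-linked genes tested, 9.31% were called higher and 10.3% lower in Ia_low.

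Tlr3, the receptor for double-stranded RNA, had 0 tags in Ia_low and 59 tags (335 reads) in Ia_high. Its level was 0 in Ia_low, with an exact upper limit of 2.59 per 100000, and 17.2 in Ia_high. The exact interval of the ratio put Tlr3 at least 6.42-fold lower in Ia_low, and with the 0 tags set to a floor of 3 tags (2.11 per 100000) the ratio was 8.15-fold lower. Its 59 tags in Ia_high began at 48 distinct positions, from 47 bases before the start codon (-47) to 3475 bases after it, and no tag held more than 4.78% of the reads of the gene. Of tags that matched Tlr3 along with other genes there was 1, which was left out.

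Tlr9, which recognises unmethylated CpG DNA, had 41 tags (448 reads) in Ia_low and 84 tags (491 reads) in Ia_high. The levels were 28.8 in Ia_low and 24.4 in Ia_high per 100000, a ratio of 1.18 (0.791 to 1.73) by tags and 1.15 by reads. The interval includes 1 and leaves out a 2-fold difference in either direction.

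Tlr2, the surface receptor for bacterial lipoproteins, had 51 tags (675 reads) in Ia_low and 66 tags (393 reads) in Ia_high. It stood at 35.8 in Ia_low and 19.2 in Ia_high per 100000, a ratio of 1.87 (1.27 to 2.73) that missed the 2-fold limit by tags and passed it by reads at 2.16. Tlr2 was called higher under 6 of 16 alternative settings, so its side of the limit depended on the setting. Tlr4, the lipopolysaccharide receptor, gave few fragments, with 6 tags (72 reads) in Ia_low and 5 tags (30 reads) in Ia_high. Its ratio of 2.90 had an interval from 0.737 to 12.0, so a difference in Tlr4 was not detectable at this depth.

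Unc93b1 had 88 tags (1325 reads) in Ia_low, next to the 87 of Tlr13, and 229 tags (2485 reads) in Ia_high, more than any other of the 9 genes. Per 100000 mRNA tags it stood at 61.8 in Ia_low and 66.6 in Ia_high, a ratio of 0.928 (0.717 to 1.19) by tags and 0.671 by reads. Myd88 had 26 tags (311 reads) in Ia_low and 47 tags (301 reads) in Ia_high, that is 18.3 in Ia_low and 13.7 in Ia_high per 100000. Its ratio was 1.34 (0.794 to 2.20) by tags and 1.30 by reads. The shared chaperone and the shared adaptor both had intervals that included 1 on this scale. Whether the receptors' ratios differ from those of Unc93b1 and Myd88 cannot be tested with 1 library each.

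**Figure D2:**
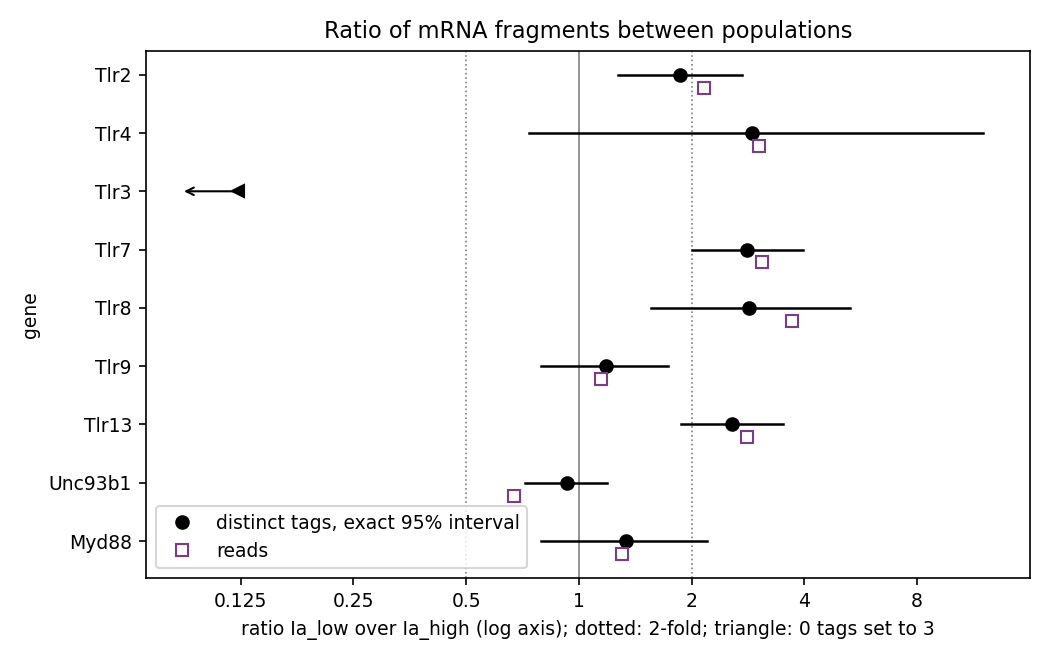
Ratio of Ia_low over Ia_high on a log axis for each gene, by distinct tags with the exact 95% interval (black) and by reads (open squares). The dotted lines mark 2-fold in either direction, and the triangle is Tlr3, whose 0 tags in Ia_low were set to 3. Tlr7, Tlr8 and Tlr13 sit together between 2.56 and 2.85 by tags.

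The scale of these ratios depends on what the tags are counted against. mRNA tags made up 18.8% of the 758783 tags in Ia_low and 29.0% of the 1185709 tags in Ia_high. Scaled to all tags, the median log2 ratio of all genes moved from -0.14 to -0.77, and none of the 9 genes was called higher. The ratios became 1.82 (1.30 to 2.57) for Tlr7, 1.85 (1.006 to 3.42) for Tlr8 and 1.66 (1.21 to 2.27) for Tlr13. These 3 fell short of the 2-fold limit, with intervals above 1. Among all genes, 163 were then called higher and 1918 lower, against 443 higher and 607 lower when scaled to mRNA tags. On that scale the ratio of Tlr9 was 0.763 and that of Myd88 0.864, both on the other side of 1, and Tlr3 stayed called lower. Unc93b1 then stood at 0.6005 (0.464 to 0.771), an interval below 1, and Tlr2 at 1.21 (0.821 to 1.77), an interval that includes 1. The statements above on higher and lower are therefore relative to the mRNA fragments of each library.

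The 3 higher receptors were also compared within windows of fragment length. Median mRNA tag length was 26 nt in Ia_low and 25 nt in Ia_high. Among tags of 23 to 26 nt the ratios were 3.41 for Tlr7, 4.29 for Tlr8 and 2.19 for Tlr13, and all 3 were called higher. Among tags of 27 to 30 nt, Tlr7 (2.39) and Tlr13 (3.67) were called higher, and Tlr8, with 9 tags in Ia_low and 12 in Ia_high, had a ratio of 1.34 (0.499 to 3.47). In the window of 20 to 22 nt the counts were small, and none of the 9 genes was called. Tlr7, with 7 tags in Ia_low and 16 in Ia_high, had a ratio of 1.89 (0.656 to 4.85). For Tlr13, with 12 and 25 tags, the ratio was 2.07 (0.947 to 4.27). Tlr8 had 4 tags in Ia_low and 3 in Ia_high, below the minimum. Tlr3 had 0 tags in Ia_low and 23 in Ia_high, with an upper limit of 0.750 for its ratio. Against the floor of 3 tags its ratio was 0.562, short of the 2-fold limit.

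Within a library the genes were compared per length, as tags per 100000 mRNA tags per kb of the longest protein-coding transcript. In Ia_low, Unc93b1 led at 27.3 (21.9 to 33.6), followed by Tlr13 at 15.05, Tlr7 at 13.9 and Tlr2 at 11.9. Myd88 stood at 9.32, Tlr9 at 8.28, Tlr8 at 5.32, Tlr4 at 1.03, and Tlr3 at 0. Counting intervals of neighbours in this order overlapped, apart from the steps from Unc93b1 to Tlr13 and from Tlr8 to Tlr4.

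In Ia_high, Unc93b1 again led at 29.4 (25.7 to 33.5), followed at a distance by Tlr9 at 7.03, Myd88 at 6.98, Tlr2 at 6.37 and Tlr13 at 5.87. Tlr7 stood at 4.93, Tlr3 at 3.89, Tlr8 at 1.87 and Tlr4 at 0.357. Neighbours from Tlr9 to Tlr3 overlapped in their intervals, while the steps from Unc93b1 to Tlr9, from Tlr3 to Tlr8 and from Tlr8 to Tlr4 were apart. The order of genes after Unc93b1 depended on the length used. Per kb of coding sequence, Myd88, whose transcript is only 45.5% coding, stood at 20.49 in Ia_low, beside Tlr13 at 20.53 and above Tlr7 at 17.2. In Ia_high it stood at 15.3 per coding kb, and 3 of 9 genes kept their rank there. By reads in place of tags, per kb of transcript, Tlr2 stood above Tlr7 in Ia_low.

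The fragments were spread along the mRNAs and mostly came from coding sequence. Of tags that lay on the longest transcripts, 82.3% (78.1 to 85.9) in Ia_low and 80.2% (76.9 to 83.2) in Ia_high were coding, against 58.1% in Ia_low and 58.7% in Ia_high over all protein-coding genes. The coding sequence takes from 45.5% of the transcript (Myd88) to 90.3% (Tlr8), with 61.5% for Tlr4 and 61.7% for Tlr3. It takes 73.3% for Tlr13, 78.1% for Tlr2, 80.9% for Tlr7, 82.1% for Unc93b1 and 89.1% for Tlr9. The part of transcript structure in the difference from all genes was not tested. Of Myd88 tags, 18 of 26 in Ia_low and 31 of 47 in Ia_high were coding, and of Tlr3 tags 42 of 59 in Ia_high. Tags covered 25.2% of the bases of the Tlr13 transcript in Ia_low and 25.4% in Ia_high, and 26.1% of the Tlr7 transcript in Ia_low and 19.6% in Ia_high. Covered bases of Unc93b1 were 35.3% in Ia_low and 51.1% in Ia_high.

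**Figure D3:**
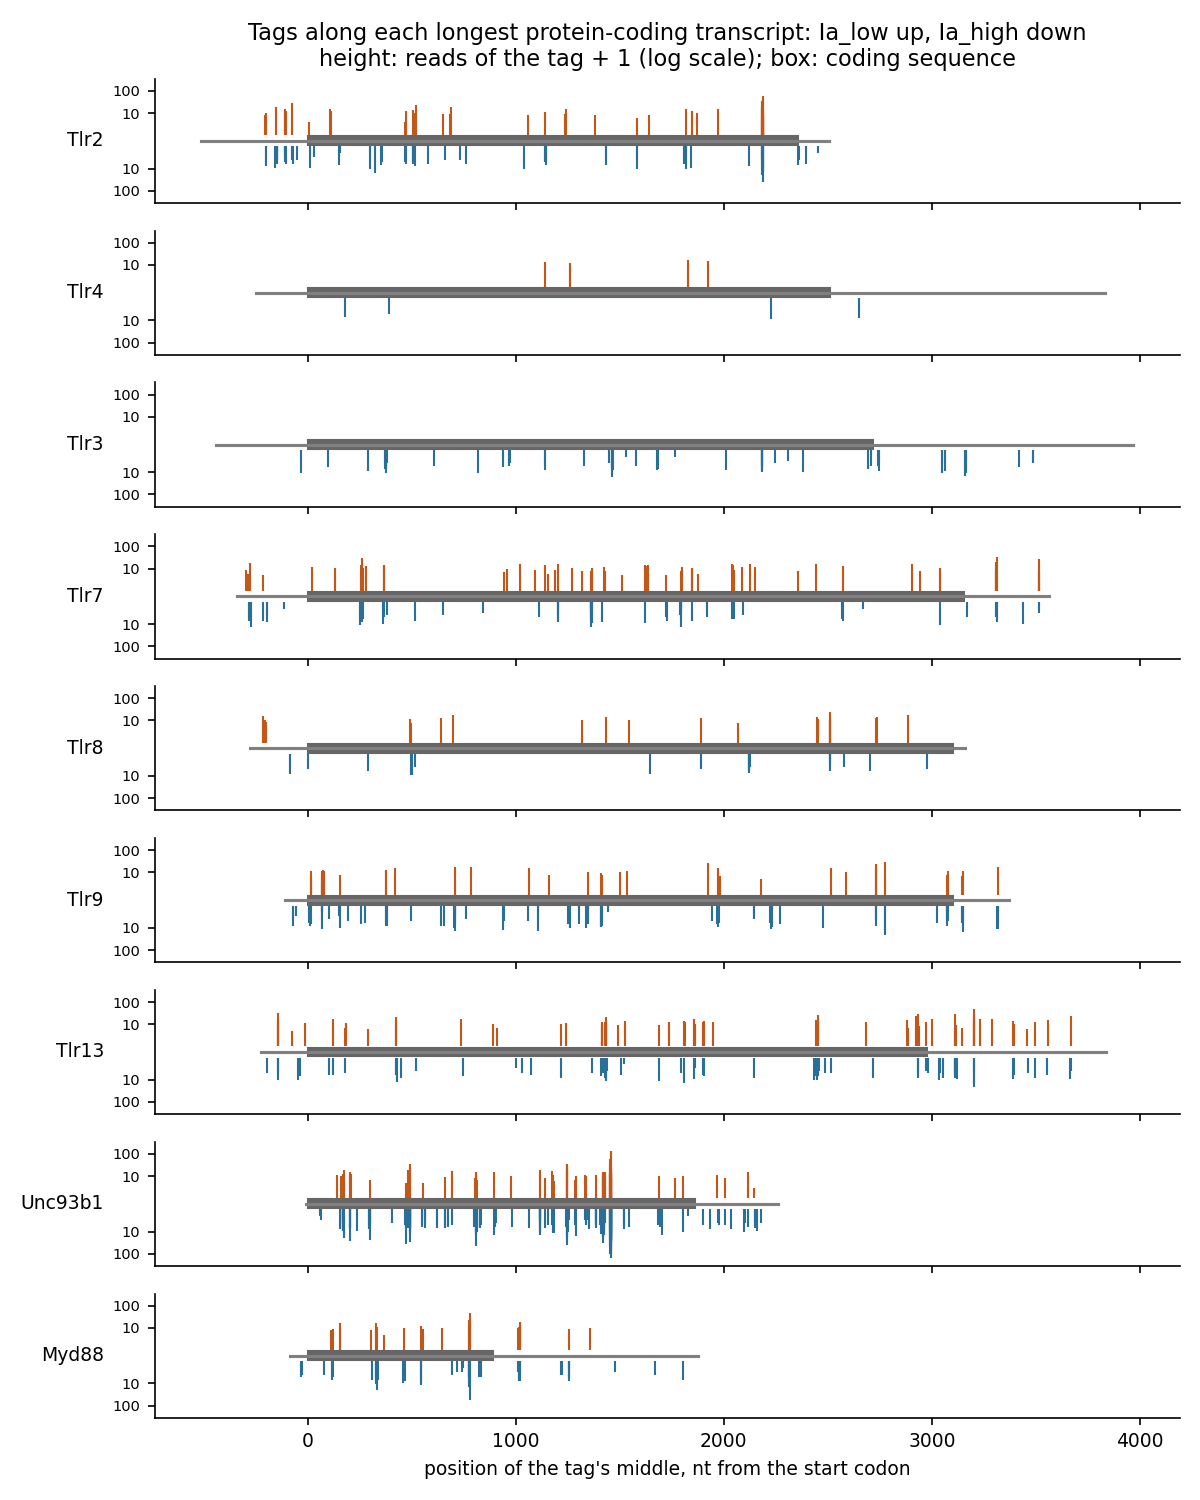
Tags along the longest protein-coding transcript of each gene, by distance in nt from the start codon, with Ia_low above and Ia_high below the line and height giving reads + 1 on a log scale. The box is the coding sequence, and the row of Tlr3 holds tags in Ia_high only.

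Splicing could be read from some fragments. Tags over an exon junction numbered 15 in Ia_low and 45 in Ia_high for Unc93b1, whose transcript has 11 exons, and 5 in Ia_low and 12 in Ia_high for Myd88, with 6 exons. Tlr13 had 4 such tags in Ia_low and 3 in Ia_high, and Tlr9 had 1 in Ia_low and 3 in Ia_high. Tlr7 and Tlr2 had none in either library. In antisense direction the 9 genes held 1 tag (8 reads, Tlr2) in Ia_low and 0 tags in Ia_high, against 2698 antisense tags in Ia_low and 5347 in Ia_high over all genes.

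The most-read start was the same in both libraries for Tlr2 and Unc93b1 and differed for the other genes seen in both. For Tlr2, the start 2173 bases after the start codon carried 30.7% of reads in Ia_low (207 reads in 7 tags) and 22.9% in Ia_high (90 reads in 6 tags). For Unc93b1, the start at base 1442 led in both, with 187 reads in Ia_low and 291 in Ia_high. The 2 libraries shared 42 tags of Unc93b1, 13 of Tlr9, 12 of Tlr13, 10 each of Tlr7 and Tlr2, 4 of Myd88, 2 of Tlr8 and 0 of Tlr4. Shared tags were 13.8% of the Tlr13 tags in Ia_low and 14.6% of those in Ia_high, against 19.99% in Ia_low and 8.28% in Ia_high of all mRNA tags. Among the genes seen in both libraries, the share ran from 0% (Tlr4) to 47.7% (Unc93b1) in Ia_low. In Ia_high it ran from 0% (Tlr4) to 18.3% (Unc93b1). Counted as distinct starts in place of tags, the ratios were 2.93 for Tlr7, 2.75 for Tlr8 and 2.27 for Tlr13, and all 3 were still called higher.

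Reads per tag differed between the libraries. mRNA tags had a median of 10 reads in Ia_low and 5 in Ia_high, and Tlr13 had a mean of 12.0 reads per tag in Ia_low and 5.67 in Ia_high. Unc93b1 had 15.1 in Ia_low and 10.9 in Ia_high, and Tlr3 had no tag in Ia_low to compare. Of the Tlr7 tags, 0% were read once in Ia_low and 13.6% in Ia_high. Of the tags of the 9 genes, 40.3% in Ia_low and 39.2% in Ia_high began with T, against 36.9% in Ia_low and 37.4% in Ia_high over all protein-coding genes. Those beginning with G were 22.9% in Ia_low and 17.9% in Ia_high, against 25.4% in Ia_low and 24.0% in Ia_high over all genes. Those beginning with C were 8.21% in Ia_low and 12.7% in Ia_high, against 8.96% in Ia_low and 9.42% in Ia_high over all genes. Mean GC content was 51.6% in Ia_low and 52.8% in Ia_high, against 51.6% in Ia_low and 50.6% in Ia_high over all genes.

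Genes that mark some cell types also differed between the libraries. In the Ly6C-low monocyte list, 10 of 11 genes were called higher, with a summed level of 1346 tags per 100000 in Ia_low and 506 in Ia_high and no gene at 0 in either library. Nr4a1, called neither, gave 318 of this sum in Ia_low and 272 in Ia_high. Its ratio was 1.17 (1.04 to 1.31) by tags and 0.831 by reads. In the cDC1 list, 7 of 8 tested genes of 9 were called lower, with a summed level of 120.1 in Ia_low and 449 in Ia_high; Irf8, also a pathway gene, was called neither. Xcr1, Cadm1 and Batf3 were at 0 tags in Ia_low, and Clec9a had 2 tags in Ia_low and 96 in Ia_high. Most cDC1 tags in Ia_low came from Wdfy4, with 97 tags in Ia_low and 915 in Ia_high, and from Irf8, with 49 in Ia_low and 199 in Ia_high. The part of these cell types in the ratios of Tlr3, Tlr7, Tlr8 and Tlr13 was not tested, and in bulk libraries fewer cells of a type and less RNA per cell cannot be told apart.

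Lists of other cell types were counted in the same way. The B cell list summed to 4.21 tags per 100000 in Ia_low and 11.9 in Ia_high, with 5 of 9 genes at 0 in Ia_low and none at 0 in Ia_high. The plasmacytoid DC list summed to 37.2 in Ia_low and 40.4 in Ia_high, with 1 of 4 tested genes called higher and 2 lower. The higher one was Runx2, with 30 tags in each library. It gave 21.1 of the sum in Ia_low and 8.73 in Ia_high. The lower ones were Tcf4, with 12 tags in Ia_low and 62 in Ia_high, and Spib (1 and 24). Siglech had 0 tags in Ia_low and 4 in Ia_high, and Cox6a2 and Klk1 had 0 in both. The macrophage list summed to 68.8 in Ia_low and 109 in Ia_high, with 3 of 8 tested genes of 9 called lower and C1qc and Cd5l at 0 in Ia_low. Those called were Vcam1, with 5 tags in Ia_low and 134 in Ia_high, Mrc1 (2 and 43) and C1qa (1 and 18). Adgre1, called neither, was the 1 tested gene with a ratio above 1, at 1.64 (1.19 to 2.24). It gave 49.2 of the 68.8 in Ia_low. The Ly6C-high monocyte list summed to 81.5 in Ia_low and 40.4 in Ia_high, with 3 of 5 tested genes of 6 called higher and none at 0. The mature DC list summed to 30.9 in Ia_low and 266 in Ia_high, with 4 of 6 tested genes of 7 called lower and Ccl22 at 0 in Ia_high. Tbc1d4, with 7 tags in Ia_low and 563 in Ia_high, gave 164 of the sum in Ia_high. The others called lower were Ccr7 (1 and 113 tags), Fscn1 (2 and 28) and Cd86 (20 and 147). Cd86 and Relb are in the pathway lists too. The cDC2 list summed to 119 in Ia_low and 131 in Ia_high, with 2 of 5 tested genes of 7 called lower and 3 genes at 0 in Ia_low. Sirpa alone gave 99.0 of this sum in Ia_low and 65.7 in Ia_high, a ratio of 1.51 (1.21 to 1.87). The genes called lower were Irf4, 3.43-fold (1.97 to 6.47), and Cd209a, 3.91-fold (1.97 to 8.85). Clec10a, with 6 tags in each library, also had a ratio above 1 and was called neither, like Sirpa. The gate itself, MHC class II, had 5 of 7 genes called lower, with 695 in Ia_low and 1273 in Ia_high. Cd74 was called neither, with a ratio of 0.777 by tags and 0.394 by reads. The ratios by tags and by reads were 0.469 and 0.284 for H2-Aa, 0.484 and 0.222 for H2-Ab1, and 0.406 and 0.223 for H2-Eb1. For Ciita they were alike, at 0.199 and 0.192.

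The remaining genes of the pathway were called in both directions in equal number. Of 90 further genes, 71 had 10 tags or more, of which 8 were called higher, 8 lower and 55 neither, with a median log2 ratio of -0.07. Of all genes tested, 6.21% were called higher and 8.51% lower.

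Among the other Toll-like receptor genes, 2 of 5 were called lower and none higher. Tlr11, the receptor for Toxoplasma profilin in the mouse, had 3 tags in Ia_low and 52 in Ia_high, 7.18-fold lower (2.32 to 35.9). Tlr1, a partner of Tlr2, had 3 tags in Ia_low and 28 in Ia_high, 3.87-fold lower (1.19 to 19.9). Tlr12, which acts with Tlr11, had 0 tags in Ia_low and 14 in Ia_high, 1.93-fold lower against the floor of 3 tags, which fell short of the limit. Tlr6, the other partner of Tlr2, had 7 tags in Ia_low and 13 in Ia_high, a ratio of 1.30 (0.439 to 3.51).

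Co-receptor genes included 2 of 4 called higher. Cd14, which hands lipopolysaccharide to Tlr4, had 43 tags in Ia_low and 48 in Ia_high, a ratio of 2.16 (1.399 to 3.33). Cd36, a scavenger receptor that works with Tlr2, had 155 tags in Ia_low and 139 in Ia_high, a ratio of 2.69 (2.13 to 3.41). Cd180, a Toll-like relative on B cells and myeloid cells, had a ratio of 0.824 (0.569 to 1.17), and its partner Ly86 one of 1.02 (0.643 to 1.58). None of 3 tested adaptor genes was called, with Pik3ap1 at 1.29 (1.01 to 1.63) and Ticam1, the adaptor of Tlr3, at 0.690 (0.228 to 1.77).

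In the trafficking and protease list, which holds genes that deliver or cut endosomal receptors, 3 of 10 were called higher and none lower (median log2 ratio 0.73). Ctsb, a lysosomal cysteine protease, had 323 tags in Ia_low and 333 in Ia_high, a ratio of 2.34 (2.003 to 2.74). Ctsl, a relative of Ctsb, had 21 tags in Ia_low and 24 in Ia_high, a ratio of 2.11 (1.12 to 3.96). Slc15a4, an endolysosomal transporter needed for Tlr7 and Tlr9 signals, had 27 tags in Ia_low and 31 in Ia_high, a ratio of 2.10 (1.21 to 3.64). Ctss stood just under the limit at 1.97 (1.61 to 2.41), and Syk at 1.76 (1.401 to 2.20).

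**Figure D4:**
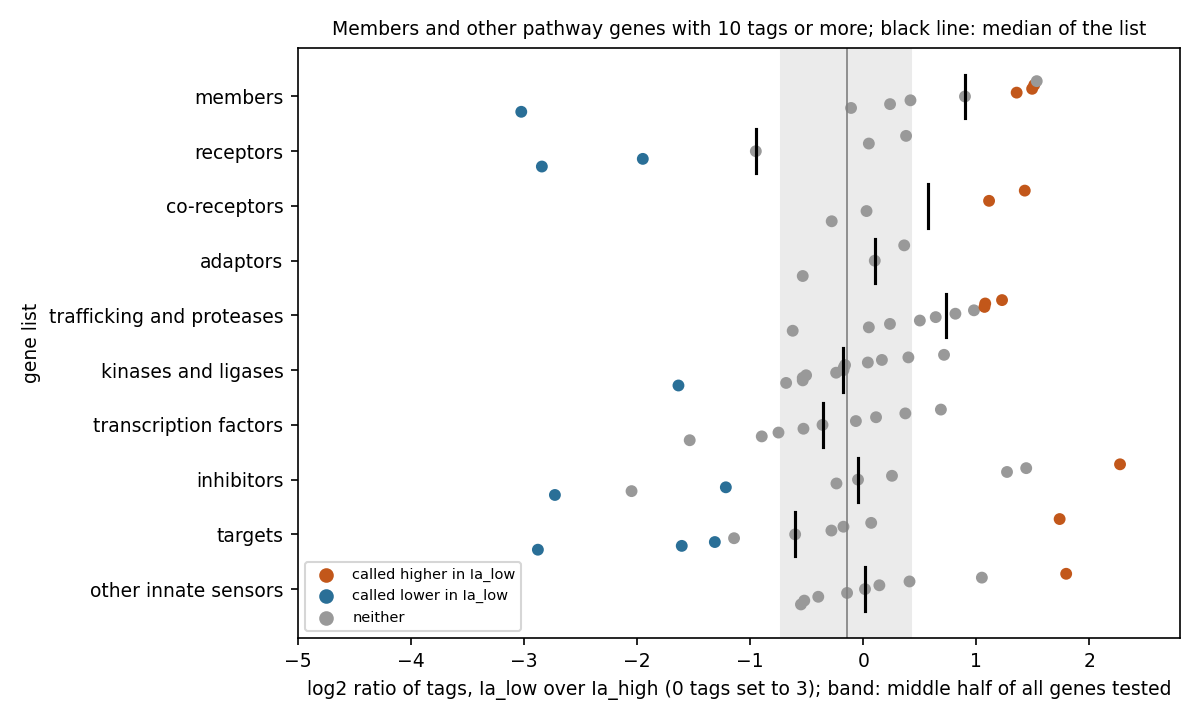
Log2 ratio of tags, Ia_low over Ia_high, for the 9 genes and for other pathway genes with 10 tags or more (x axis), by list (y axis), with genes at 0 tags set to 3. Orange points were called higher in Ia_low, blue points lower and grey points neither, black lines are list medians, and the band spans the quartiles of all genes tested, -0.73 and 0.42.

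Signalling genes below the receptors were mostly called neither. Of 13 kinase and ligase genes, 1 was lower, Tab3, which binds polyubiquitin for the kinase Map3k7, with 4 tags in Ia_low and 30 in Ia_high, 3.11-fold lower (1.09 to 12.1). Tab2 stood at 1.32 (0.973 to 1.77) and Ikbkb at 1.64 (1.19 to 2.24). None of 9 transcription factor genes was called, with Rel at 0.693 (0.578 to 0.827) and Irf8 at 0.594 (0.426 to 0.816), both with intervals below 1.

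Inhibitors went both ways. Irak3, which holds back Irak kinases in myeloid cells, had 12 tags in Ia_low and 6 in Ia_high, a ratio of 4.83 (1.68 to 15.7). Cyld, a deubiquitinase, had 23 tags in Ia_low and 129 in Ia_high, 2.32-fold lower (1.48 to 3.79), and Sigirr, an orphan inhibitory receptor, had 1 and 16 tags in Ia_low and Ia_high. Its ratio was 0.151 with an interval from 0.0036 to 0.971. Tnfaip3 stood at 0.968 (0.799 to 1.17) and Nfkbia at 1.19 (0.902 to 1.57).

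Among target genes of the pathway, 3 of 9 were called lower and 1 higher. Ptgs2, the inducible cyclooxygenase, had 25 tags in Ia_low and 444 in Ia_high, 7.36-fold lower (4.92 to 11.5). The chemokine gene Ccl4 had 11 tags in Ia_low and 66 in Ia_high, 2.49-fold lower (1.30 to 5.22), and Cd86, a costimulatory ligand, had 20 and 147 tags in Ia_low and Ia_high, 3.04-fold lower (1.90 to 5.13). Cxcl2, a neutrophil chemokine, had 87 tags in Ia_low and 63 in Ia_high, a ratio of 3.33 (2.38 to 4.69). Il1b stood at 0.885 (0.724 to 1.08) and Ccl3 at 0.822 (0.529 to 1.249). Of 9 other innate sensor genes, Clec4e, a lectin for mycobacterial glycolipids, was called higher with 23 tags in Ia_low and 16 in Ia_high, a ratio of 3.47 (1.76 to 7.03). Nlrp3 stood at 0.696 (0.488 to 0.976) and Nod1 at 1.10 (0.703 to 1.70).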

How the data were processed

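The deposited counts are reads per distinct sequence, with no header and no scaling. Per the labels' protocols, RNA under 30 bases was cut from a gel, ligated to a pair of adaptors, amplified for 12 cycles, isolated near 90 bp and sequenced on a Solexa instrument. How adaptors were trimmed and reads filtered is not given in the sources used here. The libraries held 13739811 reads in Ia_low and 16388303 in Ia_high.

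Only exact matches of tags of 20 to 30 nt to GENCODE M21 transcripts (GRCm38) were accepted. Tags of exactly 1 protein-coding gene were kept, also where a non-coding gene matched, giving 2605657 reads in Ia_low and 3280742 in Ia_high. Ratios are Ia_low over Ia_high of tags per total of such tags, with exact (Clopper-Pearson) 95% intervals, and exact Poisson intervals for levels (Python 3.11.15, scipy 1.17.1). A gene at 0 tags was set to a floor of 3 tags. The rule was tested on simulated counts, and the matching was checked by direct lookup of the tags in a subset of the transcripts. Positions refer to the longest protein-coding transcript, and a tag was placed by its middle.

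The 9 genes and the lists were chosen with earlier results of these data known. Named pathway genes are those called and, per list, the 2 others with the most tags. Of 90 further pathway genes, 89 were found in the annotation. The 16 alternatives covered counting, scaling, length, assignment, minimum, fold and depth. Plasma cell, neutrophil, T cell and NK cell lists were also counted: they summed to 68.1, 40.7, 0.702 and 5.62 tags per 100000 in Ia_low, and 28.5, 11.3, 43.6 and 4.36 in Ia_high. The T cell sum came from Cd4, with 1 tag in Ia_low and 115 in Ia_high, Tcf7 (0 and 32) and Cd8b1 (0 and 3). Cd3e, Cd3d, Cd3g and Lck had 0 tags in both libraries.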

Additional observations from a re-analysis of the deposited data

How the results depend on the processing

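Of 144 ratios of the 9 genes under 16 alternatives, 127 stayed within the counting interval, 17 moved beyond it, and 0 called ratios changed sign. The 127 include the alternatives on the minimum of tags and on the fold limit, which leave every ratio as it was by construction. Tlr3 was counted as within the interval whenever its ratio lay below the upper limit. The genes called higher among the 9 numbered 5 by reads on either scaling, 0 scaled to all tags and 0 at 20 to 22 nt, where 0 were called lower, the window holding fewer tags. Over all genes, those called higher and lower were 808 and 1422 by reads, 709 and 1534 by reads scaled to all reads, 163 and 1918 scaled to all tags, 182 and 97 at 20 to 22 nt, and 280 and 280 at 27 to 30 nt. Called lower were 304 at 23 to 26 nt and 353 in coding sequence only. Of the further pathway genes, 13 were lower by reads, 14 by reads scaled to all reads, 3 higher and 19 lower scaled to all tags, and 5, 4 and 5 lower in the length windows from short to long. By reads, 85.9% of Ia_high fragments of the 9 genes were coding. With coding length, 3 ranks were kept in Ia_high. Calls by reads used the fold alone, and beyond the fewer tags per window the cause was not tested. Tlr7 and Tlr13 each kept their call under 14 of 16 alternatives, Tlr8 under 13 and Tlr3 under 15. These counts include the alternatives on the minimum of tags and on the fold limit, which could not undo these calls. No paired analysis was possible because each population has 1 library. Depth limits Tlr4 most.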

Other observations

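The most-read end of Myd88 was offset by 1 base between the libraries. In Ia_low, 45 reads in 1 tag began 768 bases after the start codon, at a position with 0 reads in Ia_high. In Ia_high, 68 reads in 2 tags began at base 767, where Ia_low had 0 reads. These starts held 14.5% of the reads of the gene on its longest transcript in Ia_low and 22.6% in Ia_high. The pair was noticed after the values had been seen, and no comparison over other genes was made.

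Tlr8 gave its most-read starts at different places in the libraries. The start at base 2499 had 52 reads in Ia_low and 7 in Ia_high, while the start at base 2108 had 0 reads in Ia_low and 14 in Ia_high. Tlr4, with only 6 tags in Ia_low and 5 in Ia_high, had no start in common between the libraries. Over all genes, 19.99% of mRNA tags in Ia_low and 8.28% in Ia_high were found in both libraries, so few shared tags are usual here.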
